A study of Homo sapiens with 12 samples.

Results

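The arsenite response of the APEX-G3BP1 line was examined in 4 of the 12 RNA libraries of the series, chosen by their sample titles and genotype labels. The line is Huh-7.5, an established human hepatocellular carcinoma line, engineered to express APEX2, a peroxidase used for proximity labelling, fused to the stress granule protein G3BP1. The labels name the genotype as APEX-G3BP1 and give no promoter, clone or allele state of the native gene. Mock-treated cells (2 libraries) were compared with cells given 0.5 mM sodium arsenite for 45 minutes (2 libraries), and both groups carried the same construct. The other 8 libraries, from the APEX-NES and APEX-NLS lines under the same treatments, supplied the estimate of spread and a comparison of effect sizes. The labels do not say that replicates came from separate cultures, so the p-values below measure only the spread between these libraries, which may be technical.

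Arsenite is a thiol-reactive compound. It activates the kinase EIF2AK1 (HRI), which phosphorylates the translation factor eIF2α, and the resulting stop in initiation releases mRNA from ribosomes into stress granules that form around G3BP1. The same exposure is known to induce immediate-early genes, heat shock genes acting through HSF1, and antioxidant genes acting through NFE2L2 (NRF2). Transcription that runs on past the ends of genes has been described in stressed mammalian cells, and such RNA lies on the strand of the gene it follows. RNA of whole cells was measured here, so a change in a row can reflect synthesis, decay or both, and in bulk RNA fewer cells with a transcript and less RNA per cell cannot be told apart.

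The 4 libraries held 1090308 and 1152054 counts for mock and 1268915 and 1414600 counts for arsenite, within the range of 1090308 to 1461067 over all 12. A level of 3 counts, used as the floor, corresponded to 2.38 to 2.88 CPM (counts scaled by library size and TMM factor) in these libraries. Intervals and floors of this kind cover counting error only. Replicates differed by more than sampling noise in each of the 6 groups of the series, and none was treated as a duplicate.

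Row names in the table need care, because for several abundant genes the counts lay in the row annotated on the other strand. GAPDH had 12, 14, 17 and 25 counts, in the order mock 1, mock 2, arsenite 1 and arsenite 2, which is kept throughout. The row opposite to it, ENSG00000269968, had 15495, 16421, 19086 and 22188 counts. FTH1 had 11 to 33 counts against 11952 to 18070 in the opposite row BEST1, TUBA1B 11 to 18 against 14160 to 20736 in ENSG00000258017, and MALAT1 16 to 37 against 44233 to 67813 in TALAM1. KRT18 had 26 to 42 counts against 5216 to 8107 in KRT8, APOA1 23 to 39 against 3158 to 4711 in APOA1-AS, and IER2 3 to 12 against 202 to 738 in ENSG00000267598. A gene's own row need not hold its mRNA, so a call of an own row is not read below as a change of that gene. Names below are names of rows, with the gene on the opposite strand beside them. Where within a row its reads fell is not recorded, so an overlap with an exon of the opposite gene does not show that the counts came from that exon.

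Arsenite changed the levels of 2146 of 13108 rows tested (16.4%) by edgeR's quasi-likelihood test at an adjusted p under 0.05. Of these, 1209 rose (9.22% of rows tested) and 937 fell (7.15%). A rise of at least 2-fold was found in 623 rows (4.75%) and a fall of that size in 395 (3.01%). In 28.5% of all rows tested both arsenite libraries lay above both mock libraries, and in 26.5% both lay below. DESeq2 called 704 rows, 427 higher and 277 lower, all 704 of them among the 2146. Scaling by total counts alone turned the split, with 929 rows higher and 1177 lower, and shifted the median log2 fold change of all rows from 0.01 to -0.06. Leaving out mock 1 lowered the count to 1204, leaving out mock 2 to 1353 and leaving out arsenite 2 to 1387.

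The rows that rose and the rows that fell differed in where they lay relative to genes of the opposite strand, as annotated by GENCODE release 29 on GRCh38. Distance was measured to the near edge of an exon, which for a row on the opposite strand is the 3′ side of that exon. Rows with an exon within 5 kb past the 3′ end of an opposite-strand protein-coding gene rose in 239 of 1049 cases (22.8%) and fell in 39 (3.72%), with a median log2 fold change of 0.39. Rows 5 to 20 kb past such an end rose in 144 of 611 cases (23.6%) and fell in 14 (2.29%), with a median of 0.49. Beyond that, at 20 to 100 kb, 33 of 569 rows rose (5.80%) and 48 fell (8.44%), with a median of -0.07. Both classes within 20 kb thus rose more often than the 9.22% of all rows, and the class farther out did not.

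Rows with at least 1 exon in the body of an opposite-strand gene, and no overlap with opposite-strand exons, went the other way. This gene body class includes rows that also extend outside that gene. Of 2913 such rows 376 fell (12.9%, against 7.15% of all rows) and 104 rose (3.57%), with a median log2 fold change of -0.29. The 6433 rows that overlapped an exon of an opposite-strand gene stayed near the background, with 632 higher (9.82%), 346 lower (5.38%) and a median of 0.06. Of the 81 rows within 5 kb upstream of an opposite-strand start, 0 were called higher and 4 lower (4.94%) by edgeR, with 1 higher and 7 lower at an unadjusted p under 0.05. The 758 rows with none of these positions were called higher in 23 cases (3.03%) and lower in 42 (5.54%).

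**Figure D1:**
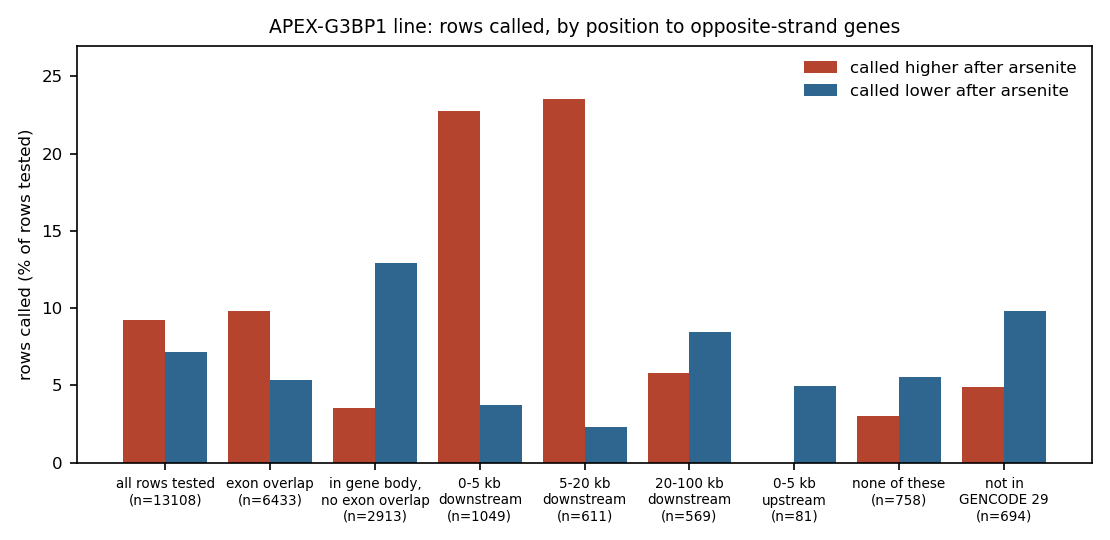
Percent of rows tested that edgeR called higher (red) or lower (blue) after arsenite in the APEX-G3BP1 line, for all 13108 rows and for each class of position relative to opposite-strand genes, with the number tested under each pair of bars. The 2 classes within 20 kb downstream stand at 22.8% and 23.6% higher, and the class inside gene bodies at 12.9% lower.

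Large changes were concentrated in the same classes. The rows within 20 kb past an opposite-strand gene end made up 12.7% of the rows tested but held 281 of the 623 rises of at least 2-fold (45.1%). Rows inside opposite-strand gene bodies made up 22.2% of the rows tested and held 208 of the 395 falls of that size (52.7%). Restricting to rows that averaged 20 CPM or more gave 32.4% and 28.8% higher in the classes at 0 to 5 and 5 to 20 kb, 22.9% lower inside gene bodies, and 12.1% higher and 10.1% lower over all such rows. Without rows in which both mock or both arsenite libraries had 3 counts or fewer, 21.8% and 19.7% of the downstream classes rose and 12.9% of the gene body class fell.

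Distance was then taken in finer steps and on both strands. Past opposite-strand ends the percent of rows called higher was 18.4% at 0 to 1 kb, 28.7% at 1 to 2 kb, 24.4% at 2 to 5 kb, 25.7% at 5 to 10 kb and 21.2% at 10 to 20 kb. It was 8.19% at 20 to 50 kb and 3.26% at 50 to 100 kb. Past ends of genes on the row's own strand, for rows outside any other gene, it lay between 12.6% and 18.2% in the same 7 distance bins, with no drop at 20 kb. Such rows more than 100 kb past an own-strand end, or with none, were higher in 157 of 1158 cases (13.6%). The 9.22% of all rows includes rows within other genes, which this own-strand set leaves out. These percentages are descriptions, and no test was made between classes, since neighbouring rows can share transcripts.

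**Figure D2:**
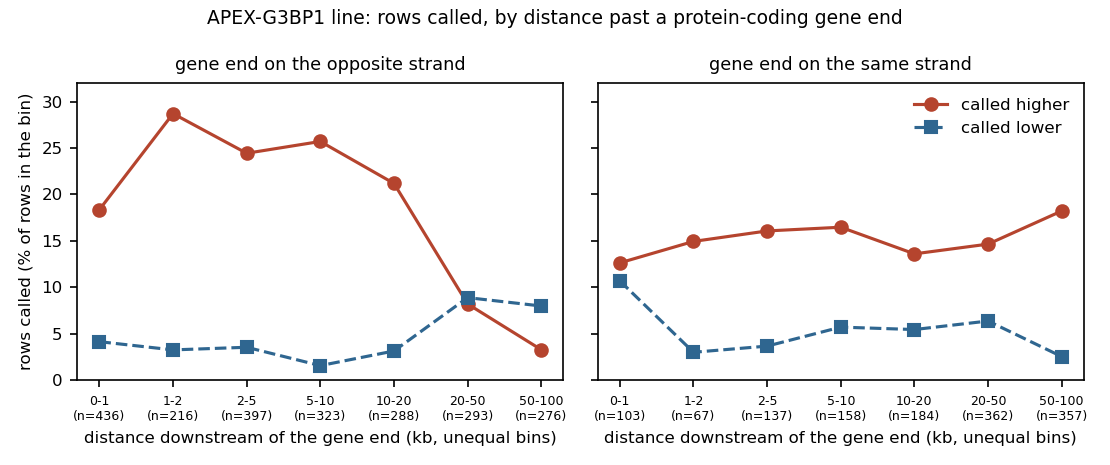
Percent of rows called higher (red circles) or lower (blue squares) after arsenite in the APEX-G3BP1 line against the distance past the nearest upstream protein-coding gene end, in 7 bins of unequal width, for gene ends on the opposite strand (left) and on the row's own strand (right). On the left the red line falls from 21.2% at 10 to 20 kb to 3.26% at 50 to 100 kb, and on the right it stays between 12.6% and 18.2%.

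The share of all counts in each class, taken over every row of the table with no filter, moved in the same directions. The gene body class held 8.54% and 8.28% of counts in the mock libraries and 7.21% and 6.73% in the arsenite libraries. The class at 5 to 20 kb held 1.60% and 1.57% in mock and 1.95% and 1.86% in arsenite. Neither class overlapped between treatments, which was also true of every other class except the one at 0 to 5 kb. The class at 0 to 5 kb held 5.52% and 5.71% in mock against 5.74% and 5.68% in arsenite, which did overlap. Its 10 rows with most counts were mitochondrial apart from CTSZ, and without these 10 the class held 3.19% and 3.19% in mock and 3.76% and 3.62% in arsenite. Leaving out these 10 rows was chosen after the data were seen.

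The other lines showed class medians of like size. At 0 to 5 kb the median log2 fold change was 0.39 in the G3BP1 line, 0.41 in the NES line and 0.35 in the NLS line. At 5 to 20 kb it was 0.49, 0.44 and 0.32, and inside gene bodies -0.29, -0.33 and -0.29. Whether these medians differ between lines was not tested.

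Single rows show what these classes hold. Rows were named only if the 2 arsenite libraries did not overlap the 2 mock libraries, so that separation is no added evidence. Among the 10 rows with the highest fitted fold changes was ENSG00000238061, a processed pseudogene on chromosome 1 (chr1:185280844-185281816, GRCh38, plus strand), 14.6 kb past the end of IVNS1ABP, which encodes a kelch protein. The level of ENSG00000238061 was 0.961 and 0.919 CPM in mock and 24.0 and 18.2 CPM in arsenite. With 2 mock and 51 arsenite counts in all, the ratio was 22.4 (exact 95% interval 5.88 to 189.6, for counting error only; edgeR adjusted p = 5.94e-08).

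A further 4 of these 10 rows had 3 counts or fewer over both mock libraries, and the intervals of the 5 ratios overlap, so their order is not resolved. PTPRE, 10.8 kb past the end of the proliferation marker gene MKI67, was at 0 and 1.84 CPM in mock and 20.6 and 19.8 CPM in arsenite (ratio 21.5, interval 5.64 to 182.4). METTL21C, 5.79 kb past the peptidase gene TPP2, went from 0.961 and 1.84 to 24.0 and 22.2 CPM (ratio 16.4, interval 5.32 to 81.8). ENSG00000228692, 7.99 kb past the RNA-binding protein gene QKI, went from 0.961 and 1.84 to 20.6 and 16.6 CPM (ratio 13.1, interval 4.22 to 66.2). Arsenite and mock libraries stood apart in each of these rows, as the rule for naming rows required. DNAJB13, whose exons overlap the non-coding row ENSG00000255847 and which lies 4301 bases past UCP2, a mitochondrial carrier gene, went from 1.92 and 0.919 to 25.7 and 18.2 CPM (ratio 15.5, interval 5.02 to 77.5).

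The other large rises had measurable mock levels. LHFPL4, 19.1 kb past the end of the chromatin gene SETD5, had 4.80 and 6.43 CPM in mock and 45.4 and 38.8 CPM in arsenite (log2 fold change 2.88, SE 0.355, edgeR adjusted p = 2.28e-11). SRSF11, 7.54 kb past ANKRD13C, had 6.73 and 4.59 CPM in mock and 45.4 and 34.1 CPM in arsenite (log2 fold change 2.79, SE 0.363). The 3′ end of SELENOM lies 15 bases past the end of SMTN, which encodes the smooth muscle protein smoothelin. SELENOM had 0 and 6.43 CPM in mock and 22.3 and 24.6 CPM in arsenite (log2 fold change 2.80, SE 0.486). The SELENOM mock libraries were themselves far apart.

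Within 5 kb, the 6 largest rises lay past ends of genes with varied roles. TNIP1, 952 bases past GPX3, a secreted glutathione peroxidase gene, had 5.77 and 3.67 CPM in mock and 33.4 and 34.9 CPM in arsenite (log2 fold change 2.84, SE 0.389, edgeR adjusted p = 1.64e-09). TCIRG1, 1.96 kb past the choline kinase gene CHKA, had 12.5 and 13.8 CPM in mock and 76.3 and 71.3 CPM in arsenite (log2 fold change 2.48, SE 0.263). NIPSNAP3B, 3.55 kb past ABCA1, the gene of a cholesterol efflux transporter, had 22.1 and 24.8 CPM in mock and 127 and 117 CPM in arsenite (log2 fold change 2.37, SE 0.205, edgeR adjusted p = 3.91e-20). TCIRG1 and NIPSNAP3B had tight replicates. RPL36A (1.65 kb past the galactosidase gene GLA), RARS2 (2.04 kb past the nucleotide sugar transporter gene SLC35A1) and SELENOM were the remaining rows, with log2 fold changes of 2.43, 2.61 and 2.80.

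Of the 10 largest falls 5 belonged to the gene body class, 3 overlapped exons and 2 had no match in the annotation. ENSG00000225140, inside DIP2C on chromosome 10 without exon overlap, had 42.3 and 45.0 CPM in mock and 10.3 and 10.3 CPM in arsenite (log2 fold change -2.07, SE 0.301, edgeR adjusted p = 1.36e-08). NANOGP6, a pseudogene inside ABCC2, the gene of a canalicular export pump, had 35.6 and 29.4 CPM in mock and 5.14 and 6.34 CPM in arsenite (log2 fold change -2.47, SE 0.374). ENSG00000284914, inside the chemokine receptor gene CCR6, had 26.9 and 28.5 CPM in mock and 6 and 4.75 CPM in arsenite (log2 fold change -2.35, SE 0.407). Replicates of these 3 rows were close. ENSG00000272235, inside the transcription factor gene PRDM16, fell by 2.08 on the log2 scale with arsenite libraries at 3.43 and 9.51 CPM.

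Other falls were less even. PECR, which has an exon in the body of TMEM169, had 14.4 and 55.1 CPM in mock and 6 and 5.55 CPM in arsenite. Mock 2 thus carried most of the mock mean, and the PECR call was lost without mock 2 (log2 fold change -2.59, SE 0.397, with all libraries). ASMTL, opposite to ASMTL-AS1, had 20.2 and 17.5 CPM in mock and 1.71 and 3.17 CPM in arsenite (log2 fold change -2.88, SE 0.531, edgeR adjusted p = 1.01e-05). LMF1-AS1, which overlaps an exon of the lipase maturation gene LMF1, had 19.2 and 17.5 CPM in mock and 2.57 and 3.96 CPM in arsenite (log2 fold change -2.44, SE 0.486). The rows ENSG00000287257 and ENSG00000287104, with no match in GENCODE release 29, fell by 2.16 and 2.08 on the log2 scale.

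The row MIR3591 was among the 10 largest falls and lies opposite to the precursor of miR-122, the most abundant microRNA of hepatocytes and a host factor of hepatitis C virus, for which Huh-7.5 cells are a standard host. MIR3591 (chr18:58451080-58451152, minus strand) overlaps MIR122 and its host transcript MIR122HG over 73 bases. The level of MIR3591 was 27.9 and 34.9 CPM in mock and 6.86 and 7.13 CPM in arsenite (log2 fold change -2.15, SE 0.357, edgeR adjusted p = 7.56e-07). Both arsenite libraries were low and close together. The protocol is not one for small RNA, so no level of mature miR-122 is given. The mature sequences of both strands (RefSeq, GRCh38.p14) are shown because they make plain how the row relates to miR-122, with the seed, bases 2 to 8 from the 5′ end, in capitals.
hsa-miR-122-5p: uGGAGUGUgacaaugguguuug
hsa-miR-3591-3p: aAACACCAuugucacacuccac
hsa-miR-122-3p: aACGCCAUuaucacacuaaaua
hsa-miR-3591-5p: uUUAGUGUgauaauggcguuuga
The 5p arm of miR-122 and the 3p arm of miR-3591 share 21 genomic positions and pair at all 21, and the other arms share 20 and pair at all 20. No seed is common to any pair of the 4. The same row fell by 1.75 on the log2 scale in the NES line and by 2.62 in the NLS line, and the difference test did not separate the G3BP1 line (edgeR adjusted p = 0.999).

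Rows overlapping exons of exactly 1 opposite-strand protein-coding gene included strong rises. RPL9, opposite to the lipoyl synthase gene LIAS, had 7.69 and 11.9 CPM in mock and 69.4 and 67.4 CPM in arsenite (log2 fold change 2.78, SE 0.280, edgeR adjusted p = 6.08e-16). H4C15, opposite to the histone gene H3C15, had 15.4 and 11.9 CPM in mock and 61.7 and 76.9 CPM in arsenite (log2 fold change 2.34, SE 0.261). PHLDA1-DT, opposite to PHLDA1, a pleckstrin homology-like domain gene, had 5.77 and 3.67 CPM in mock and 18.9 and 27.7 CPM in arsenite (log2 fold change 2.30, SE 0.432). In each of these rows both arsenite libraries stood above both mock libraries, as the rule for naming rows required. SMURF2 (opposite to CEP95), MPIG6B (LY6G6C) and TTC21A (GORASP1) completed the 6 largest, with log2 fold changes of 2.75, 2.31 and 2.27. All 6 rows also had an exon within 5 kb past an opposite-strand protein-coding gene end. The distance was 985 bases past KLB for RPL9, 2421 past HIST2H2AA4 for H4C15 and 2690 past NAP1L1 for PHLDA1-DT. It was 3802 bases past CEP95 for SMURF2, 324 past DDAH2 for MPIG6B and 2952 past CSRNP1 for TTC21A. Which of these positions the counts came from is not recorded.

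The 6 largest falls in this class were LMF1-AS1, given above, and 5 smaller ones. Of these rows MRPL23-AS1 had an exon 328 bases past MRPL23, and the rest lay at least 92810 bases past an opposite-strand gene end. GPR146, opposite to C7orf50 and the non-coding row ENSG00000257607, had 75 and 58.8 CPM in mock and 21.4 and 21.4 CPM in arsenite (log2 fold change -1.64, SE 0.237, edgeR adjusted p = 1.32e-08). ENSG00000267882, opposite to ZMYND8, a chromatin reader gene, had 54.8 and 56.0 CPM in mock and 17.1 and 23.0 CPM in arsenite (log2 fold change -1.45, SE 0.250). Both rows had mock pairs above their arsenite pairs, as the rule for naming rows required. MRPL23-AS1 (opposite to MRPL23) and SAMD11P1 (PAFAH1B1) fell by 1.76 and 1.69 on the log2 scale, and ENSG00000271716 (VGLL4) by 1.51. Calls for the last 3 were lost in DESeq2 and without some single libraries: arsenite 1 for MRPL23-AS1, mock 2 or arsenite 2 for SAMD11P1, and mock 1 or arsenite 2 for ENSG00000271716.

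Rows with more counts were looked at separately, by a rule chosen after their values were seen. It took rows averaging at least 50 CPM that overlap exons of 1 opposite-strand protein-coding gene. An overlap of at least 200 bases was required with 1 opposite-strand gene, which could be a non-coding one. Of 1426 such rows 208 rose (14.6%) and 96 fell (6.73%), with a median log2 fold change of 0.07, beside 9.22% and 7.15% of all rows and 12.1% and 10.1% of rows averaging 20 CPM or more, and 13 rose and 2 fell by at least 2-fold. UBE2N, opposite to the nucleotide hydrolase gene NUDT4, had 60.5 and 61.5 CPM in mock and 203 and 178 CPM in arsenite (log2 fold change 1.64, SE 0.142). SMARCC2, opposite to the myosin light chain gene MYL6, had 41.3 and 40.4 CPM in mock and 121 and 118 CPM in arsenite (log2 fold change 1.54, SE 0.174). THUMPD3 lies opposite to the GTPase activator gene SRGAP3 and to the non-coding rows ENSG00000254485 and THUMPD3-AS1. It had 390 and 385 CPM in mock and 924 and 849 CPM in arsenite (log2 fold change 1.19, SE 0.0763). Which of these its overlap length belongs to is not recorded. These 3 rows had replicates closer than the treatments by a wide margin. The falls of at least 2-fold were DIPK1A, opposite to the ribosomal protein gene RPL5 (97.1 and 82.7 CPM in mock, 41.1 and 42.0 CPM in arsenite), and TMPRSS9, opposite to TIMM13, a mitochondrial import chaperone gene (211 and 180 CPM in mock, 92.6 and 101 CPM in arsenite).

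Immediate-early genes encode transcription factors and regulators induced within minutes of a stimulus. The counts of each list below stand beside 9.22% of all rows higher and 7.15% lower, and no list was tested as a set. Among the well-counted rows above 14.6% rose, so 9.22% is a low comparison for lists whose rows hold many counts. The rows opposite to GAPDH, TUBA1B and MALAT1 rose by 0.18, 0.22 and 0.27 on the log2 scale. A call of that size in a list is therefore not particular to the list. All 4 tested rows opposite to immediate-early genes rose (9.22% of all rows did), with a median log2 fold change of 1.12 beside 0.01 for all rows. ENSG00000267598, which overlaps 946 bases of IER2 on chromosome 19, had 194 and 187 CPM in mock and 578 and 585 CPM in arsenite (log2 fold change 1.61, SE 0.0923, edgeR adjusted p = 2.72e-36). HOOK2, opposite to JUNB, an AP-1 subunit gene, had 28.8 and 26.6 CPM in mock and 53.1 and 66.6 CPM in arsenite (log2 fold change 1.11, SE 0.231). NR4A1AS, opposite to the nuclear receptor gene NR4A1, had 15.4 and 17.5 CPM in mock and 36.0 and 35.7 CPM in arsenite (log2 fold change 1.12, SE 0.285). The IER2 pair stood apart by about 3-fold with replicates almost equal, and the other rows were more variable. IER3-AS1, opposite to IER3, had 19.2 and 29.4 CPM in mock and 44.6 and 41.2 CPM in arsenite (log2 fold change 0.81, SE 0.263). Its call was lost under 6 of 12 alternatives, among them DESeq2 and leaving out mock 1, arsenite 1 or arsenite 2. The call for NR4A1AS was lost in DESeq2 and without mock 1. The nearest exon lay 4545 bases past BEST2 for HOOK2, 103 past IER3 for IER3-AS1, 11930 past NACC1 for ENSG00000267598 and 42570 past TAMALIN for NR4A1AS.

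The list held 23 genes, and 18 of them had no row on the opposite strand through which they could be read. Among their own rows 5 were tested and 1 rose: JUN, the AP-1 subunit gene, was at 2.88 and 0.919 CPM in mock and 12.9 and 13.5 CPM in arsenite (4 and 32 counts in all, ratio 7.01, exact 95% interval 2.49 to 27.3), a call lost in DESeq2 and without mock 2. The JUN row overlaps no opposite-strand gene, and whether JUN mRNA changed cannot be read from it. The median own row of the list had 1 to 3 counts per library.

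Heat shock genes encode chaperones, and 2 of the 4 tested rows opposite to them rose (background 9.22%), with 0 lower and a list median of 0.50. TECR, opposite to DNAJB1, the HSP40 co-chaperone gene, had 16.3 and 12.9 CPM in mock and 32.6 and 34.9 CPM in arsenite (log2 fold change 1.21, SE 0.300, edgeR adjusted p = 0.00141), a call lost in DESeq2. HSPD1, itself a mitochondrial chaperonin gene and opposite to its partner HSPE1, had 48.0 and 38.6 CPM in mock and 74.6 and 72.1 CPM in arsenite (log2 fold change 0.76, SE 0.194), a call lost in DESeq2 and without mock 2. Both rows had arsenite pairs above their mock pairs, and the treatments were likewise apart in 2136 of the 2146 rows called. TECR also has an exon 98 bases past NDUFB7, and HSPD1 an exon 11273 bases past COQ10B. The other 2 rows, DGAT1 and ENSG00000254690, lie opposite to HSF1, the master regulator of the heat shock response, and had log2 fold changes of 0.09 and 0.23 that did not pass. Of 9 tested own rows, a share near the background, HSPD1 rose and HSPA9 fell, the latter by 1.09 on the log2 scale. The HSPA9 call was lost under 6 of 12 alternatives, among them DESeq2 and leaving out mock 1, mock 2 or arsenite 1.

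The NRF2 and glutathione list had 3 of 10 opposite rows higher (background 9.22%) and 0 lower, with a median log2 fold change of 0.19. Of 8 tested own rows 0 were called by edgeR or DESeq2, with 1 higher at an unadjusted edgeR p under 0.05. MGAT4B and MRNIP both overlap SQSTM1 (p62), the gene of an autophagy receptor that also stabilizes NRF2. MGAT4B had 12.5 and 19.3 CPM in mock and 32.6 and 34.1 CPM in arsenite (log2 fold change 1.06, SE 0.291), a call lost in DESeq2 and without mock 1. MRNIP, which overlaps 1582 bases of SQSTM1 and MRNIP-DT, had 1970 and 2040 CPM in mock and 2320 and 2574 CPM in arsenite (log2 fold change 0.29, SE 0.0609). The rows opposite to SQSTM1 thus moved by different amounts. MGAT4B also has an exon 950 bases past LTC4S, and MRNIP an exon 3191 bases past SQSTM1. BEST1, opposite to the ferritin gene FTH1, had 11952 and 12976 counts in mock and 15503 and 18070 in arsenite (log2 fold change 0.24, SE 0.0591), a call lost without mock 1 or arsenite 2. The rows opposite to NQO1, GCLC, SLC7A11 and NFE2L2 itself were not called, with log2 fold changes between -0.02 and 0.24. The row opposite to GCLC overlaps only 7 bases of it, so GCLC can hardly be read through it. Metallothioneins, the usual metal-response genes, could not be read: 5 of the 10 own rows of that list were at 0 in all 4 libraries and 0 opposite rows exist.

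In the integrated stress response, the pathway downstream of eIF2α phosphorylation, 2 of 8 opposite rows rose (background 9.22%) and 0 fell, with a median of 0.12, and 1 of these calls was lost under most alternatives. MARS1, which overlaps DDIT3 (CHOP) and ARHGAP9, had 95.1 and 71.7 CPM in mock and 183 and 197 CPM in arsenite (log2 fold change 1.19, SE 0.132, edgeR adjusted p = 1.17e-13). MBD6 overlaps DDIT3 by fewer bases, together with DCTN2, and its log2 fold change of 0.27 (SE 0.254) did not pass. MARS1 also has an exon 143 bases past ENSG00000285133, and MBD6 an exon 1093 bases past DCTN2. AIMP2, opposite to EIF2AK1, the kinase that senses arsenite, had 107 and 103 CPM in mock and 143 and 131 CPM in arsenite (log2 fold change 0.38, SE 0.133), a call lost under 9 of 12 alternatives, among them DESeq2 and leaving out each single library of the line. Of 8 tested own rows 1 rose, the row named for ATF4, the pathway's main transcription factor gene. It had 7.69 and 0.919 CPM in mock and 14.6 and 15.1 CPM in arsenite (log2 fold change 1.79, SE 0.510), a call lost in DESeq2 and without mock 2. Whether ATF4 mRNA changed cannot be read from it. That row lies 6.41 kb past the end of RPS19BP1 on the opposite strand.

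Rows opposite to stress granule protein genes had a number of calls near the background. Of 12 tested, 0 rose (background 9.22%) and 1 fell (background 7.15%) by edgeR, the same counts as at an unadjusted p under 0.05, and their median log2 fold change was 0.01. ATOX1, opposite to G3BP1 itself, had 14.4 and 12.9 CPM in mock and 18.9 and 7.92 CPM in arsenite (log2 fold change -0.05, SE 0.390), with the arsenite pair on either side of the mock pair. SETD6, opposite to the deadenylase scaffold gene CNOT1, had 994 and 1047 CPM in mock and 1097 and 1096 CPM in arsenite (log2 fold change 0.10, SE 0.0661), a difference that did not pass. SH2B3, opposite to ATXN2, was the row that fell, from 188 and 160 to 126 and 136 CPM (log2 fold change -0.41, SE 0.119), a call lost in DESeq2 and without mock 1 or arsenite 1. Among 14 own rows FXR2 and MOV10 rose and FXR1 and UBAP2L fell, at levels of 6.34 to 44.4 CPM over the 4 libraries, and each call was lost in DESeq2 and without arsenite 2 among other libraries.

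**Figure D3:**
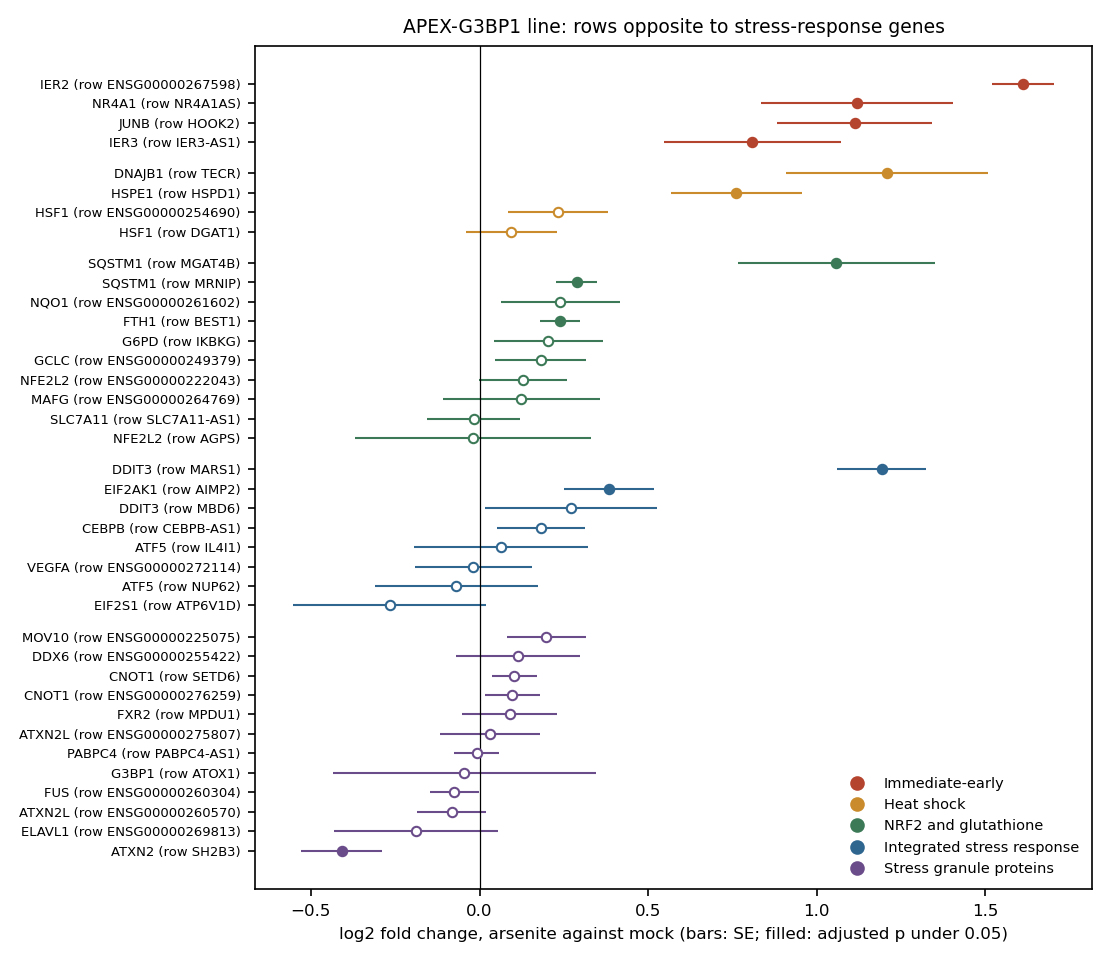
Log2 fold change of arsenite against mock in the APEX-G3BP1 line, with its SE as a bar, for each tested row that overlaps exons of a listed stress-response gene on the opposite strand, grouped by list in color and filled where the edgeR adjusted p was under 0.05. The 4 immediate-early rows are all filled and lie between 0.81 and 1.61, while the stress granule rows lie around 0 with 1 filled below it.

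Promoters of genes opposite to named and listed rows were read for motifs. The 250 bases before the RefSeq start (GRCh38.p14) were searched on both strands for AP-1 (TGANTCA), the cAMP response element CRE (TGACGTCA), the antioxidant response element (TGACNNNGC) and the heat shock element, and entries were found for 19 of 25 genes looked up, as 34 promoters. AP-1 was found for DDIT3 only, CRE for H3C15 and PAFAH1B1, the antioxidant element for HMGCS1, and the heat shock element for 0 genes. Among all 35116 RefSeq promoters, 6.57% held AP-1, 1.65% CRE, 10.9% the antioxidant element and 0.441% the heat shock element. The promoters of IER2, JUNB and DDIT3 are given because rows opposite to them (ENSG00000267598, HOOK2 and MARS1) rose, with the AP-1 match in capitals.
IER2 (chr19:13150161-13150410, plus strand): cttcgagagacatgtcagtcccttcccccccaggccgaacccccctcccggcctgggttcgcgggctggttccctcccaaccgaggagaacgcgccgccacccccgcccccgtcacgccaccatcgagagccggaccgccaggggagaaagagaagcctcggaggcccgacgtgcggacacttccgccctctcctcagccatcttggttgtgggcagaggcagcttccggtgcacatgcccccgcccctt
JUNB (chr19:12791236-12791485, plus strand): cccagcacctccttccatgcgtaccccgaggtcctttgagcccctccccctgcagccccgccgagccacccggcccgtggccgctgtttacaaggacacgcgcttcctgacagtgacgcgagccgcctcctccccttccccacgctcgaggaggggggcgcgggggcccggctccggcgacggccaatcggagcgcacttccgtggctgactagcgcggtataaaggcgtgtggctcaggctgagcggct
DDIT3 (chr12:57520515-57520764, minus strand): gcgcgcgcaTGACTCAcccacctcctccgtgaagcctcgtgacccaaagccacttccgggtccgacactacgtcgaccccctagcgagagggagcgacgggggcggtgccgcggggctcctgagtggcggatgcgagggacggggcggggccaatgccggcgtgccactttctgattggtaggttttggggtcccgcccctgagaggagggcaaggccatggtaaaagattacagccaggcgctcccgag
The DDIT3 match begins 241 bases before the start, and the other DDIT3 promoter entry holds the same match, 238 bases before its start. A match is a description of letters, and the windows of IER2 and JUNB hold none of the 4 motifs.

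Ribosomal protein genes were read through rows on both strands. Among 30 tested rows opposite to ribosomal protein genes 8 rose (background 9.22%) and 3 fell (background 7.15%), with a median log2 fold change of 0.13. ATG10, opposite to RPS23, had 2384 and 2405 CPM in mock and 2829 and 3065 CPM in arsenite (log2 fold change 0.30, SE 0.0608), and SH3D19, opposite to RPS3A, had 748 and 761 CPM in mock and 949 and 950 CPM in arsenite (log2 fold change 0.33, SE 0.0686). DENND2B, opposite to RPL27A, had 53.8 and 43.2 CPM in mock and 114 and 93.5 CPM in arsenite (log2 fold change 1.09, SE 0.177). Arsenite libraries were above mock libraries in all 3, a separation of treatments found in 2136 of the 2146 rows called. The rows that fell were DIPK1A (RPL5), LONP1 (RPL36) and CENATAC (RPS25), by 1.11, 0.69 and 0.98 on the log2 scale. The CENATAC call was lost under 5 of 12 alternatives, among them DESeq2 and leaving out mock 2 or arsenite 2.

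Of 34 tested own rows of ribosomal protein genes 8 rose (background 9.22%) and 0 fell by edgeR (10 and 1 at an unadjusted p under 0.05), and 3 of the 8 lay within 5 kb past an opposite-strand gene end: RPL36A, RPL10A (2.81 kb past TEAD3) and RPL12 (2.30 kb past ZNF79). RPL10A had 1.92 and 3.67 CPM in mock and 12.9 and 18.2 CPM in arsenite, and RPL12 20.2 and 17.5 CPM in mock and 52.3 and 42.8 CPM in arsenite. The 3 rows past gene ends are counted by class, which leaves out rows that overlap opposite-strand exons. Of all 13108 rows tested, 1049 were in this class. The own rows RPL7A and RPS2 were also in it and were not called. Called own rows of other lists had varied positions. JUN fell in none of the classes, HSPD1 and FXR2 overlapped exons of an opposite-strand gene, and FGB and APOC3 lay past a gene end. FGB, the fibrinogen beta chain gene, had 25.9 and 22.1 CPM in mock and 64.3 and 50.7 CPM in arsenite (log2 fold change 1.25, SE 0.245) and lies 12 kb past FGA. APOC3, 2.68 kb past APOA1, had 4.80 and 6.43 CPM in mock and 15.4 and 16.6 CPM in arsenite (log2 fold change 1.49, SE 0.475). The APOC3 call was lost under 6 of 12 alternatives, among them DESeq2 and leaving out each single library of the line.

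Liver and lipid genes were read through abundant opposite rows. Of 5 such rows for hepatocyte genes 2 rose (background 9.22%) and 0 fell, with a median of 0.11, and of 15 tested own rows 2 rose (FGB and APOC3) and 0 fell. Of the opposite rows, APOA1-AS (opposite to APOA1, the main HDL protein) went from 3034 and 2971 to 3485 and 3733 CPM (log2 fold change 0.27, SE 0.0591), and ENSG00000280390 (opposite to APOB, the LDL protein) from 2138 and 2214 to 2473 and 2719 CPM (log2 fold change 0.26, SE 0.0604), the latter call being lost without mock 1 or arsenite 2. For cholesterol synthesis 3 of 9 opposite rows rose (background 9.22%) and 0 fell, with a median of 0.11. Of 12 tested own rows FDFT1 rose (log2 fold change 1.21, SE 0.349), a call lost in DESeq2 and without mock 1 or arsenite 1. IDI2-AS1, opposite to IDI1 (isopentenyl diphosphate isomerase) and IDI2, had 362 and 363 CPM in mock and 565 and 540 CPM in arsenite (log2 fold change 0.61, SE 0.0807, edgeR adjusted p = 5.19e-10). Its mock replicates were nearly equal and its arsenite libraries both higher. ENSG00000261604, opposite to HMGCS1, rose by a log2 fold change of 0.24 (SE 0.0584), a call lost without mock 1, and the row opposite to FDPS was not called (0.11).

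Cell cycle genes showed no call in either direction: 0 of 7 opposite rows and 0 of 6 own rows passed edgeR's test or DESeq2, with medians of 0.07 and -0.27. At an unadjusted edgeR p under 0.05 there were 1 higher and 0 lower among the opposite rows, and 1 higher and 2 lower among the own rows. Among 9 rows opposite to snoRNA host genes LRRC75A (SNHG29) rose by a log2 fold change of 0.19 and TRNAU1AP, which overlaps 8 bases of SNHG12, fell by 1.40. The LRRC75A call was lost under 7 of 12 alternatives, among them total counts alone and leaving out mock 1 or arsenite 2. Of 6 tested own rows of nuclear RNAs 1 rose, TALAM1, which lies opposite to MALAT1 (16 to 37 counts in its own row). TALAM1 had 44233 and 49616 counts in mock and 61258 and 67813 in arsenite (log2 fold change 0.27, SE 0.0612), a call lost without mock 1. ENSG00000269968, opposite to GAPDH, and ENSG00000258017, opposite to TUBA1B, rose by 0.18 and 0.22, and both calls were lost without mock 1 or arsenite 2. The call of ENSG00000269968 was lost under 4 of 12 alternatives, among them also total counts alone.

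Markers of the cell type were present mainly through the other strand. APOA1-AS and ENSG00000280390, at 2138 to 3733 CPM, were high in every library, whereas ALB, whose gene has no opposite row, was at 23.1, 20.2, 24.0 and 23.0 CPM in its own row. Of the other cell types, 3 of 5 fibroblast, 3 of 4 endothelial, 2 of 5 leukocyte and 2 of 3 erythroid own rows were at 0 in all 4 libraries. Summed levels were 3.96 to 12.9 CPM for the endothelial, 3.17 to 4.80 CPM for the leukocyte and 0 to 3.43 CPM for the erythroid own rows. The summed level of the fibroblast own rows was 9.61 and 5.51 CPM in mock and 50.6 and 32.5 CPM in arsenite. COL3A1 made up most of it (8.65, 5.51, 50.6 and 32.5 CPM, log2 fold change 2.53, SE 0.339), and this row lies 19.2 kb past the end of COL5A2 on the opposite strand. The row opposite to LYZ, ENSG00000257764, had 440 and 503 CPM in mock and 558 and 550 CPM in arsenite. This call was lost under 9 of 12 alternatives, among them DESeq2 and leaving out mock 1, arsenite 1 or arsenite 2. What part other cell types had in any result was not tested.

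The G3BP1 line was then set against the mean arsenite effect of the NES and NLS lines in the same fit. The effects differed for 20 of 13108 rows (0.153%), 7 higher and 13 lower in the G3BP1 line, by edgeR at an adjusted p under 0.05. At an unadjusted p under 0.05 edgeR gave 1121 rows and DESeq2 298, and DESeq2 called 0 after adjustment. Leaving out mock 1 or mock 2 of the line lowered the count to 12, and leaving out NLS arsenite 2 lowered it to 13.

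Of these rows 8 were also called for arsenite in the G3BP1 line, averaged at least 10 CPM there and did not overlap between treatments, 6 with positive and 2 with negative differences. UVSSA met all but the 10 CPM limit. The other 12 rows held 1 positive and 11 negative differences. RWDD2A has an exon in the body of the phosphoglucomutase gene PGM3 and an exon 11457 bases past ME1. It had 17.3 and 17.5 CPM in mock and 82.3 and 57.8 CPM in arsenite in the G3BP1 line. In the NES line it had 42.0 and 49.6 against 85.2 and 67.8 CPM, and in the NLS line 39.6 and 52.7 against 67.5 and 58.2 CPM. The G3BP1 mock libraries were the lowest of the 12 (difference of log2 effects 1.40, SE 0.290, edgeR adjusted p = 0.00432). SLFN5, 76.7 kb past SLFN11, and ESYT3, 12.7 kb past CEP70, had the same form: mock levels in the G3BP1 line were 13.5 and 6.43 CPM for SLFN5, against 26.7 to 29.5 CPM in the other lines, and 33.6 and 29.4 CPM for ESYT3, against 45.7 to 92.4 CPM. Their differences were 1.53 (SE 0.377) and 0.97 (SE 0.227). Differences between lines before treatment move with these results, and their part was not tested.

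NFE2L3 has an exon in the body of HNRNPA2B1 and an exon 19989 bases past the end of that gene. It had 481 and 462 CPM in mock and 872 and 835 CPM in arsenite in the G3BP1 line. The log2 effect was 0.86 where the NES line had 0.50 and the NLS line 0.34 (difference of effects 0.44, SE 0.0911). Mock levels of NFE2L3 were 462 to 545 CPM over the 3 lines. Its arsenite levels were 624 to 710 CPM in NES and 639 to 694 CPM in NLS, below both arsenite libraries of the G3BP1 line. ENSG00000176868, which overlaps 2713 bases of the proline-rich protein gene PRRC2B fell less in the G3BP1 line, from 996 and 1030 to 749 and 822 CPM. Its log2 effect was -0.36, against -0.80 and -0.82 in the other lines (difference 0.44, SE 0.0856, edgeR adjusted p = 0.00127). ENSG00000228748, opposite to the polarity gene DLG5, likewise fell by 0.28, against falls by 0.76 and 0.83 (difference 0.52, SE 0.115). The call of its fall in the G3BP1 line was lost under 4 of 12 alternatives, among them DESeq2 and leaving out mock 2 or arsenite 1.

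NDRG4, 6.32 kb past the end of CNOT1, rose less in the G3BP1 line, from 59.6 and 51.4 to 75.4 and 81.6 CPM (log2 effect 0.50). The effect was 1.25 for NES cells and 1.89 for NLS cells (difference of effects -1.07, SE 0.231). The call of that effect in the G3BP1 line was lost under 9 of 12 alternatives, among them DESeq2 and leaving out each single library of the line. ENSG00000287104, unmatched in the annotation, fell more in the G3BP1 line, from 42.3 and 34.9 to 11.1 and 7.13 CPM (difference -1.65, SE 0.399, edgeR adjusted p = 0.0395). Each of these 8 differences was lost in DESeq2 and without at least 1 library: mock 2 of the line for NFE2L3, mock 1 or arsenite 2 of the line for ENSG00000176868, mock 1, mock 2 or arsenite 1 of the line for RWDD2A, and mock 1 of the line or NES mock 1 for NDRG4. For ENSG00000228748, ESYT3, ENSG00000287104 and SLFN5 the difference was lost under 6, 9, 10 and 12 of 18 alternatives.

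**Figure D4:**
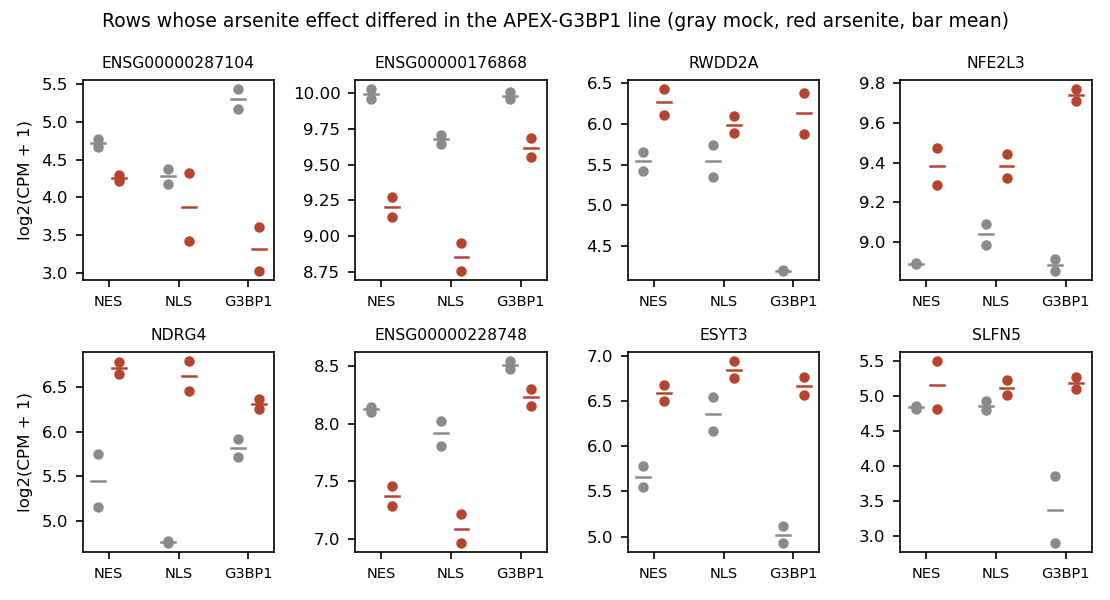
Level as log2(CPM + 1) in each library of the 3 lines for the 8 rows whose arsenite effect differed in the APEX-G3BP1 line, with mock in gray, arsenite in red and the group mean as a bar (the vertical scale differs between panels and does not start at 0). For RWDD2A, ESYT3 and SLFN5 the G3BP1 mock libraries lie below every other library, and for NFE2L3 the G3BP1 arsenite libraries lie above every other.

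The other 12 rows of that test fall outside the rule for named rows and were chosen after their values were seen. In ENSG00000281383, ENSG00000280800, ENSG00000280614 and ENSG00000281181, on chromosome 21, NES arsenite 2 and NLS arsenite 2 held 134 to 559 counts and every other library 37 or fewer. The difference there rests on libraries outside the G3BP1 line. The mitochondrial rows MT-CO1 and MT-CYB had log2 effects of -0.12 and -0.01 in the G3BP1 line, against 0.48 and 0.32 for MT-CO1 and 0.29 and 0.37 for MT-CYB in the NES and NLS lines. For LINC01709 the effect was -0.01 against 0.38 and 0.51, and for ENSG00000247853, opposite to the remodeller gene CHD4, -0.09 against -0.51 and -0.53. FLJ13224 had 55.7 and 55.1 CPM in mock and 39.4 and 35.7 CPM in arsenite in the G3BP1 line (log2 effect -0.56, not called there), and a difference of -1.29. UVSSA had 12.5 and 13.8 CPM in mock and 5.14 and 3.17 CPM in arsenite (log2 effect -1.65), and a difference of -2.80. For ARHGAP5-AS1 the arsenite libraries of the G3BP1 line were at 67.7 and 16.6 CPM, so its difference of -1.39 rests on arsenite 2, without which the call was lost. No fold is given for ENSG00000291149, whose NES and NLS mock libraries had 0 to 3 counts.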

How the data were processed

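Raw counts per gene row, as deposited by the authors, were taken for 12 Huh-7.5 libraries made, per the labels' protocols, from ribosome-depleted Trizol RNA with a directional NEBNext kit. The submitters' processing notes name Trim Galore, Subread, featureCounts, edgeR and build GRCh38.p13, with no versions or settings, and how strand was set in counting is not given in the sources used here. Of the table's columns, 4 matched no sample and were not used. Rows (61255) were matched to GENCODE release 29 by symbol or Ensembl identifier (57004 matched) and classed by the position of their exons relative to genes of the opposite strand. Each row took the first class that fitted: exon overlap, gene body, then distance past the nearest protein-coding gene end. A row counted under exon overlap or gene body could therefore also lie past a gene end. GENCODE release 29 may differ from the annotation behind the counts.

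Differences were tested with edgeR 4.0.16 (R 4.3.3): TMM, filterByExpr (minimum count 10, minimum total 15), a quasi-likelihood fit over all 12 libraries with 1 mean per group (6 residual degrees of freedom) and Benjamini-Hochberg adjustment over 13108 rows. The fit was tested on simulated data. A fitted log2 fold change at very low counts depends on the prior count, so named rises whose mock libraries had 3 counts or fewer each are given as ratios of summed counts, scaled by library size, with exact 95% intervals. Alternatives were DESeq2 1.42.0, other scaling and filters, a replicate block, the 4 libraries alone, a stricter threshold and single libraries left out. The numbers did not pair libraries: deviations of same-numbered mock and arsenite libraries of the G3BP1 line correlated at r = 0.00578 across 6521 rows, which are not independent replicates.

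Named rows were called, had a mean of at least 10 CPM in the 4 libraries and did not overlap between treatments. They were the 10 largest rises and falls, the 6 largest of each among rows overlapping exons of 1 opposite-strand protein-coding gene, the 6 largest rises within 5 kb past a gene end, up to 12 rows of the difference test, the 4 of highest level and members of the lists. Members, lists and rules were chosen with earlier results of these data known. Some list members are not reported here.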

Additional observations from a re-analysis of the deposited data

Results flagged for a closer look

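The arsenite effect of the APEX-G3BP1 line differed from the mean effect of the NES and NLS lines for 20 rows, by a test of the difference itself (edgeR adjusted p under 0.05). Of these, 8 were also called for arsenite in the G3BP1 line, averaged at least 10 CPM there and did not overlap between treatments. Their differences of log2 effects, positive where the G3BP1 line was higher, were 1.53 for SLFN5, 1.40 for RWDD2A, 0.97 for ESYT3, 0.52 for ENSG00000228748, 0.44 for ENSG00000176868, 0.44 for NFE2L3, -1.07 for NDRG4 and -1.65 for ENSG00000287104. The other 12 rows held 1 positive and 11 negative differences. DESeq2 called 0 rows in this comparison, with 298 at an unadjusted p under 0.05.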

How the results depend on the processing

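The 2146 rows called became 704 (427 higher, 277 lower) in DESeq2, 1217 (722 higher, 495 lower) at an adjusted p under 0.01, and between 1204 and 1519 without single libraries of the line (674 to 864 higher, 530 to 655 lower). With the replicate block 2200 rows were called, 2138 of them among the 2146. Total counts alone gave 929 higher and 1177 lower, 44.1% of calls higher in place of 56.3%, and turned the median of the exon-overlap class to -0.01. The difference test gave 22 rows with the replicate block, 13 at an adjusted p under 0.01, 0 in DESeq2 and 12 to 23 without single libraries. Falls inside gene bodies (376) numbered 105 in DESeq2, 223 among rows of at least 20 CPM and 204 to 274 without single libraries. Rises at 0 to 5 kb (239) numbered 100 in DESeq2 and 131 among rows of at least 20 CPM. Rises at 5 to 20 kb (144) numbered 58 in DESeq2, 55 among rows of at least 20 CPM, 61 with 10 kb as the near bound and 86 to 106 without single libraries. Fewer rows enter at 20 CPM and with the moved bound, and the cause of the other shifts was not tested. Of 1272 alternative values for 106 named or listed rows 1117 kept their call, 155 lost it and 0 changed direction, and the block lost 0. The 20 CPM restriction, leaving out NES and NLS libraries, and leaving out the 10 rows with most counts of a class were chosen after seeing the data. With 2 libraries a side and 3 counts worth 2.38 to 2.88 CPM, depth limits what can be said of rows near 10 CPM.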
